A study of Mus musculus with 9 samples.

Results

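The 10 genes described here encode bone morphogenetic protein (BMP) and growth and differentiation factor (GDF) ligands, namely Bmp2, Bmp3, Bmp4, Bmp5, Bmp6, Bmp7, Bmp8a, Gdf5, Gdf6 and Gdf10. They were taken by symbol from the 43472 genes of the raw count table, and all 10 were found there. RNA came from C57BL/6J mice, in 3 libraries each of bone (Bone, labelled as osteoblasts), mature cartilage (MatC, labelled as mature chondrocytes) and immature cartilage (ImC, labelled as immature chondrocytes). No allele, treatment or transgene is given for any group, and the labels used here state no age, sex, anatomical site or number of animals. All libraries were made from RNA amplified for 1 round, and every level is a mean over the cells of the sample.

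BMP and GDF ligands are secreted proteins of the transforming growth factor beta superfamily. They are made as precursors, cut by proprotein convertases, held in check by secreted antagonists such as noggin, and bind pairs of type I and type II receptor kinases that phosphorylate Smad1, Smad5 and Smad9. In the skeleton they are known for starting cartilage and bone formation, for patterning joints and for acting on chondrocyte maturation.

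Osteoblast markers led in all Bone libraries and chondrocyte markers in all ImC libraries, but the MatC libraries were mixed. Summed over 6 osteoblast markers (Col1a1, Bglap, Sp7, Ibsp, Runx2 and Dmp1), libraries held 37732 to 43156 CPM (counts scaled to a common library size) in Bone, 694 to 15151 CPM in MatC and 152 to 377 CPM in ImC. Chondrocyte markers summed to 344 to 716 CPM in Bone, 7631 to 17335 CPM in MatC and 12204 to 15953 CPM in ImC, and hypertrophic markers to 337 to 410, 2132 to 12182 and 101 to 577 CPM. MatC replicate 2, labelled as mature chondrocytes, held 15151 CPM of osteoblast markers, against 7631 CPM of chondrocyte and 3561 CPM of hypertrophic markers, and went against its label in that respect. Mitochondrially encoded genes took 7.24% to 8.91% of counts in Bone, 33.7% to 82.3% in MatC and 32.0% to 55.0% in ImC. MatC replicate 3 stood apart, with the 82.3% share, and 3 reads there equalled 0.849 CPM against 0.149 to 0.257 CPM in the other 8 libraries. Total counts ran from 7913684 to 23159547.

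By symbol, the ligands called in at least 1 comparison lie on GRCm38 (GENCODE M21) at chr4:123312645-123343252 (Bmp8a), chr14:46383520-46390669 (Bmp4), chr5:98854415-98884396 (Bmp3), chr2:172868012-172940321 (Bmp7), chr2:133552159-133562885 (Bmp2), chr14:33923587-33937983 (Gdf10) and chr2:155941023-155945367 (Gdf5). Among the transcripts of the 10 ligands and Bmp8b, the only pair of 55 that shared a run of 50 or of 100 bases was Bmp8a and Bmp8b, a duplicated pair on chromosome 4 (GRCm38). Their coding sequences were 88.3% identical over 1197 aligned bases, and 8.74% of the runs of 50 bases in Bmp8a were also found in Bmp8b. The longest shared run, of 182 coding bases in exons 2 and 3 (chr4:123324593-123325163, minus strand, Bmp8a, GENCODE M21), is shown because a read that fell wholly inside it could not be assigned to either gene.

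Bmp8a and Bmp8b shared run: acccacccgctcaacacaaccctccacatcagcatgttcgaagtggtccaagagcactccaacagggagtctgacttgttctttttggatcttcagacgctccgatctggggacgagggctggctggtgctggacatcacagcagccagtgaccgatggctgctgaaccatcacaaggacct

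The coding window of 120 bases with the most differences is shown because reads over it can separate the pair. Capitals mark the 27 bases that differ. It lies in exons 6 and 7 of both genes, at chr4:123313298-123315805 on the minus strand for Bmp8a and at chr4:123123057-123124506 on the plus strand for Bmp8b.

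Bmp8a: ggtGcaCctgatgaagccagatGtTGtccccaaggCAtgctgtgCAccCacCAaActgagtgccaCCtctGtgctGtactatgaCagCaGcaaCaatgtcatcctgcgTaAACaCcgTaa

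Bmp8b: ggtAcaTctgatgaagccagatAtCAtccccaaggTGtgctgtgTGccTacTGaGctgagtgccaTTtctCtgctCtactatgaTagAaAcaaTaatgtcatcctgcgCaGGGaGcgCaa

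Of the reads assigned to either copy, Bmp8a held 93.3% in Bone (1168 against 84 reads, Wilson 95% interval 91.8% to 94.5%), 98.1% in MatC (731 against 14 reads, 96.9% to 98.9%) and 75% in ImC (6 against 2 reads, 40.9% to 92.9%). These intervals cover counting error only. Amplified reads are not independent molecules. Whether the authors kept or dropped reads that matched both copies is not given in the sources used here, so the level of Bmp8a carries that uncertainty.

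Antisense neighbours touch Bmp8b and some other ligands. The library kit does not mark strand, so reads from exons that overlap on opposite strands cannot be told apart. Bmp5 shares 1878 of its 4025 exonic bases with the antisense gene Gm26903, which had 5 reads in Bone, 6 in MatC and 44 in ImC. Bmp6 shares 224 bases with Txndc5, which had 8227 reads in Bone, 4686 in MatC and 6536 in ImC, far above the 125, 134 and 46 reads of Bmp6 in Bone, MatC and ImC. Bmp4 shares 89 bases with Gm15217, which had 13, 8 and 0 reads in Bone, MatC and ImC. Bmp8b shares 133 bases with Ppie, which had 1416, 697 and 1370 reads in Bone, MatC and ImC. Those are far above the 84, 14 and 2 reads of Bmp8b. It also shares 339 bases with Gm17244, which is not among the genes counted. Gdf5 shares 936 of its 2320 exonic bases with Gm15557, which had 0 reads in all 9 libraries. That 0 does not show that no reads fell there. Whether reads matching both genes were kept or dropped is not given in the sources used here.

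Bone was set against ImC, and this was the comparison in which most ligands differed. Bmp8a, Bmp4, Bmp3, Bmp7 and Bmp2 were higher in Bone, and Gdf10 and Gdf5 were lower. So 7 of the 9 ligands tested were called, 5 higher and 2 lower, where 31.1% of all 14257 genes tested were called, 14.3% higher and 16.8% lower. Calls are adjusted p-values under 0.05 from edgeR's quasi-likelihood test, adjusted over all genes tested. Every Bone library lay above every ImC library for 6 of the 9 and below for 2, as for 30.1% and 28.8% of all genes tested, or 59.0% in either direction. The median log2 fold change of the 9 was 1.67, against -0.02 over all genes tested. Fewer cells of a type and less RNA per cell cannot be told apart in these tissue samples. Gdf6 did not pass the filter on low counts and was not tested.

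MatC was set against ImC as the comparison of the cartilage groups. Bmp8a, Bmp3 and Bmp4 were higher in MatC, Gdf5 was lower, and 5 of the 9 tested ligands were not called. That is 3 higher and 1 lower, where 7.71% of all genes were called, 5.41% higher and 2.29% lower. Without MatC replicate 2 the count was 1 higher and 1 lower, and without MatC replicate 3 it was 3 and 1. Every MatC library lay above every ImC library for 4 of the 9 and below for 1, where 23.9% of all genes did not overlap, 11.4% above and 12.5% below. The median log2 fold change of the 9 was 1.87, against 0.03 over all genes.

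Bone was also set against MatC. Bmp4 was higher and Gdf10 lower in Bone, and the other 7 tested ligands were not called. Of all genes 6.05% were called, 1.36% higher and 4.69% lower. Every Bone library lay above every MatC library for 2 of the 9 and below for 2, where 35.6% of all genes did not overlap, 17.9% above and 17.7% below. Without MatC replicate 2 the count was again 1 higher and 1 lower, without MatC replicate 3 it was 1 higher and 0 lower, and without any 1 of the Bone libraries it was 0 in both directions. The 3 comparisons share libraries in pairs, so their calls are not independent of each other.

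**Figure D1:**
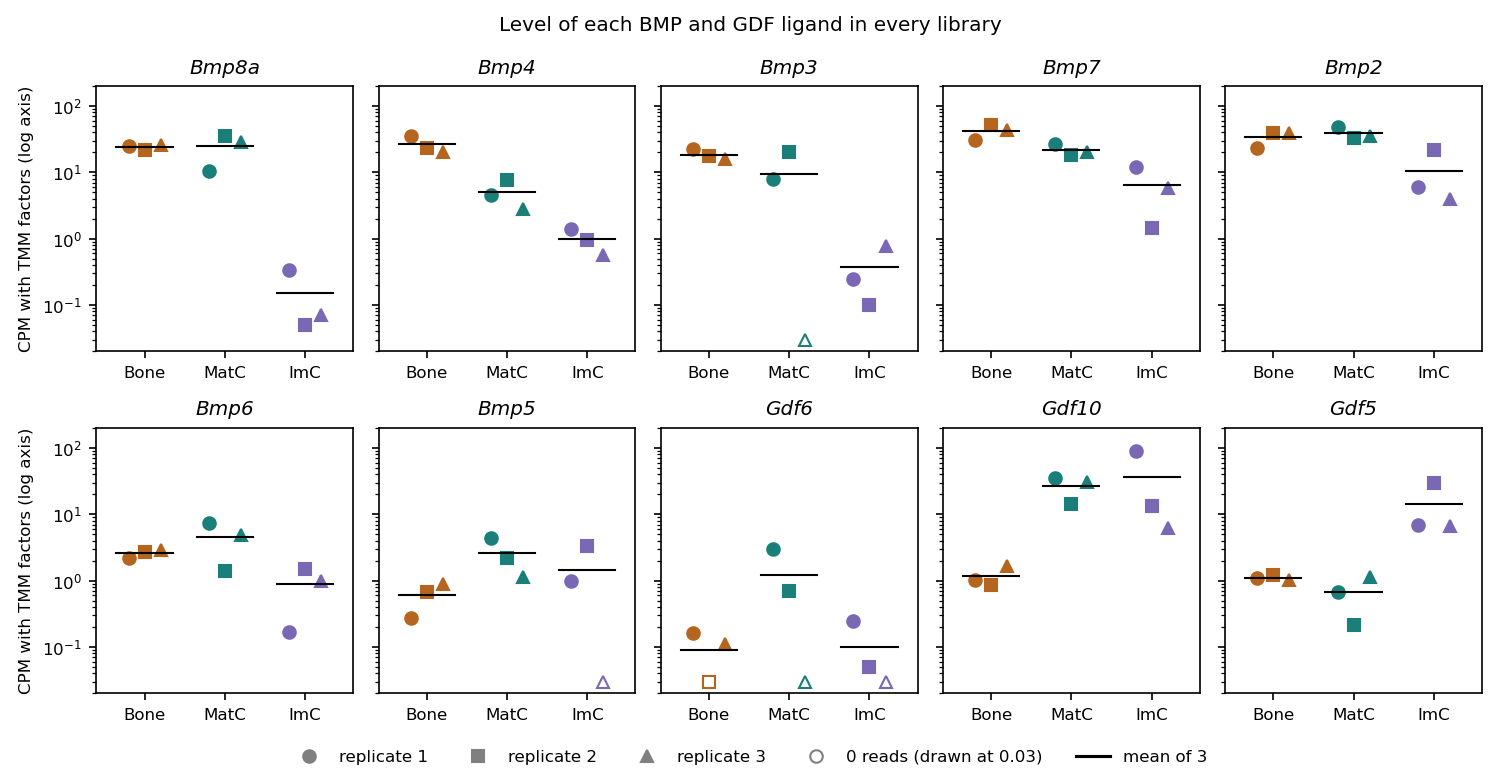
Level of each ligand in CPM with TMM scaling (log axis) in the 3 libraries of Bone, MatC and ImC; shapes mark replicates, bars the mean of 3, and open symbols 0 reads, drawn at 0.03. Bmp8a, Bmp4, Bmp3, Bmp7, Bmp2 and Bmp6 stood above ImC in every Bone library, and Gdf10 and Gdf5 stood below it.

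**Figure D2:**
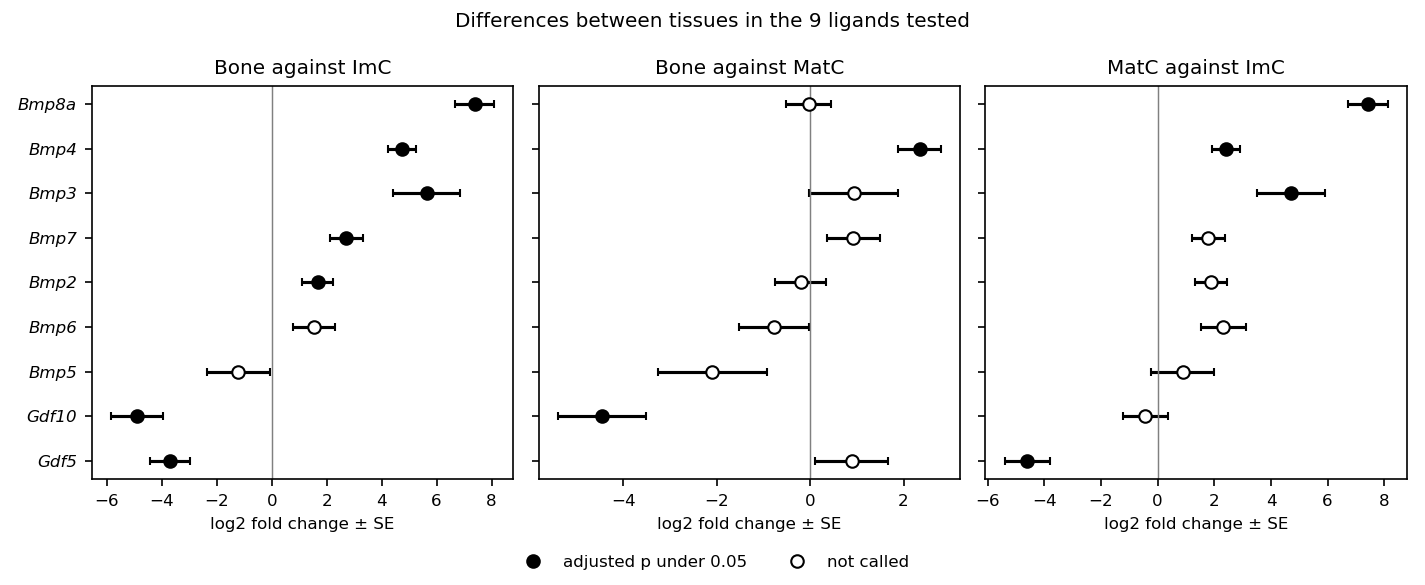
Log2 fold change with its SE for the 9 tested ligands in each comparison; filled points have an adjusted p under 0.05. The values run from -4.90 for Gdf10 to 7.38 for Bmp8a in Bone against ImC.

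Bmp8a, a ligand known in the mouse for its part in spermatogenesis, was nearly absent from immature cartilage and abundant in the other tissues, at levels that overlapped. It stood at 25.0, 21.8 and 25.5 CPM in Bone, 10.3, 34.7 and 29.1 CPM in MatC and 0.333, 0.0496 and 0.0712 CPM in ImC. Every library of Bone and of MatC lay at least an order of magnitude above every ImC library, and the MatC libraries spanned the Bone ones. The log2 fold change was 7.38 ± 0.71 (SE, adjusted p = 0.000189) for Bone against ImC and 7.41 ± 0.71 (adjusted p = 0.000973) for MatC against ImC. Both calls held in every alternative tried. Without ImC replicate 1, which held 4 of the 6 ImC reads, the values were 8.51 and 8.48. For Bone against MatC it was -0.03 ± 0.48 (adjusted p = 0.978), a difference that turned in sign with the scaling, to 1.29 with library size only and 0.06 with the authors' factors. Those values do not show that the tissues are equal.

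Bmp8a was also the only ligand called between MatC and the midpoint of its neighbours. Its level in MatC exceeded the mean of Bone and ImC on the log2 scale by 3.72 ± 0.46 (adjusted p = 0.00296). That is 1 of 9 ligands, where 3.06% of all genes were called, 2.98% higher and 0.0772% lower. The count was 2 without any 1 of the ImC libraries and without MatC replicate 3. The contrast is computed from the fitted levels already compared above, so for Bmp8a it is no separate evidence. Bmp8a was not called between Bone and MatC (-0.03 ± 0.48). Gdf5 had a value of -2.74 ± 0.73 (adjusted p = 0.0834) and Gdf10 one of 2.02 ± 0.68 (adjusted p = 0.176).

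Bmp4, an early and broadly acting inducer of bone formation, was the only ligand called higher both in Bone than in MatC and in MatC than in ImC. Its libraries held 34.97, 23.5 and 20.4 CPM in Bone, 4.62, 7.68 and 2.83 CPM in MatC and 1.42, 0.943 and 0.570 CPM in ImC. Every Bone library lay above every MatC library, and every MatC library lay above every ImC library, an order found for 2.81% of all genes and also for Bmp7. The log2 fold change was 4.75 ± 0.52 (adjusted p = 0.000288) for Bone against ImC, 2.34 ± 0.46 (adjusted p = 0.0176) for Bone against MatC and 2.41 ± 0.49 (adjusted p = 0.0184) for MatC against ImC. Among all genes, 0.281% were called higher at both steps. The step between Bone and MatC was not called without Bone replicate 1, 2 or 3 (adjusted p = 0.101, 0.0745 and 0.0524), and that between MatC and ImC was not called without ImC replicate 2 or MatC replicate 2 (adjusted p = 0.0526 and 0.0546), with library size only (adjusted p = 0.151) or with only those groups in the fit (adjusted p = 0.143). Against the midpoint of Bone and ImC, the MatC level of Bmp4 differed by 0.03 ± 0.34 on the log2 scale (adjusted p = 0.981).

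Bmp3, which is made in bone and can oppose osteogenic BMPs, was high in Bone and uneven in mature cartilage. It stood at 22.2, 17.6 and 15.9 CPM in Bone, 7.81, 20.4 and 0 CPM in MatC and 0.250, 0.0993 and 0.783 CPM in ImC. The MatC libraries therefore ran from the Bone level down to 0 reads in replicate 3, where a count of 0 allows up to 0.849 CPM. The log2 fold change was 5.63 ± 1.22 (adjusted p = 0.00778) for Bone against ImC and 4.70 ± 1.19 (adjusted p = 0.0407) for MatC against ImC. Without ImC replicate 3 these were 6.78 and 5.87, and without MatC replicate 2 the MatC value was 3.52. MatC was not called when ImC replicate 1 or 2, MatC replicate 1 or 2, or a single Bone library was left out (adjusted p at most 0.122), and with limma-voom (adjusted p = 0.150), library size only (adjusted p = 0.0812) and the replicate number as a block (adjusted p = 0.107).

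Markers of other cells differed between the MatC libraries as well. Osteoblast markers summed to 3785, 15151 and 694 CPM in MatC replicates 1, 2 and 3, and endothelial markers to 84.6, 161 and 11.0 CPM. Bmp3 and Bmp4 had their highest MatC level in replicate 2 and their lowest in replicate 3, in the order of those marker sums. Bmp8a did not follow that order, with 29.1 CPM in replicate 3, where the osteoblast and endothelial sums were lowest, and 10.3 CPM in replicate 1. Hypertrophic chondrocyte markers summed to 2132, 3561 and 12182 CPM in MatC replicates 1, 2 and 3. Bmp8a was thus lowest where the hypertrophic sum was lowest, but was highest in replicate 2, at 34.7 CPM. Osteoclast markers summed to 335 to 656 CPM in Bone, 8.49 to 288 CPM in MatC and 4.77 to 6.75 CPM in ImC, and macrophage markers to 21.4 to 61.5, 5.09 to 48.1 and 2.08 to 4.99 CPM. In ImC the osteoclast markers Calcr and Dcstamp and the macrophage markers C1qa and C1qb had 0 reads. Erythroid markers summed to 3476 to 4767 CPM in Bone, 539 to 1992 CPM in MatC and 7.42 to 743 CPM in ImC. The part of such cells in the ligand levels was not tested.

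**Figure D3:**
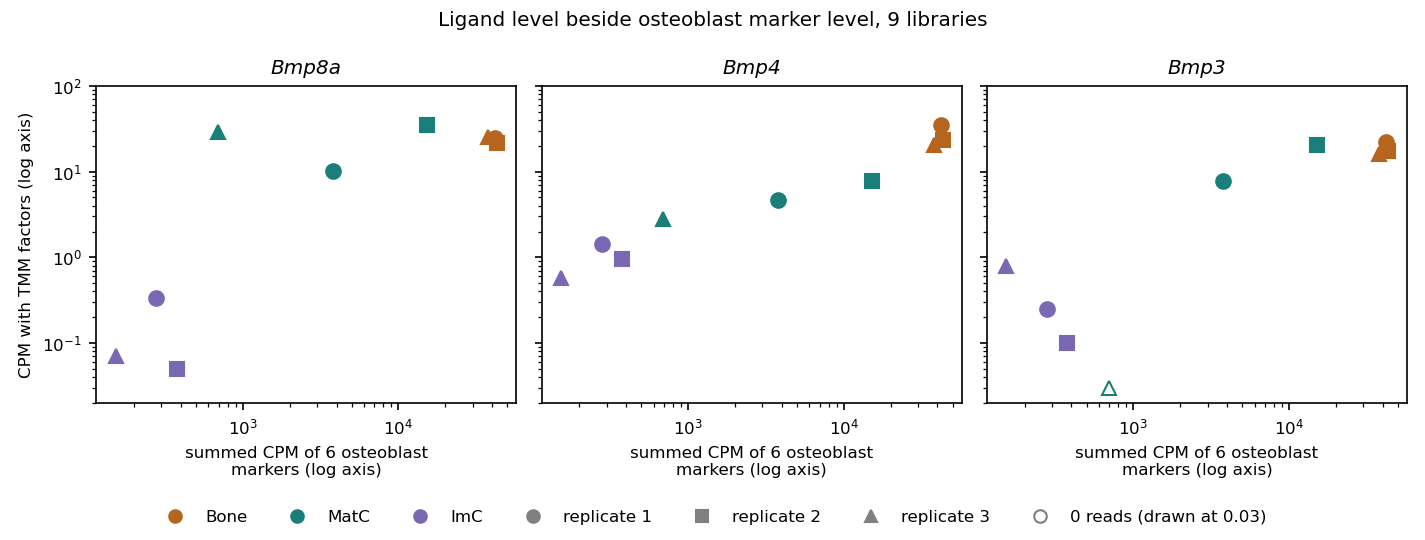
CPM of Bmp8a, Bmp4 and Bmp3 against the summed CPM of 6 osteoblast markers in the 9 libraries, on log axes; colours mark tissues and shapes replicates, and the open symbol stands for 0 reads, drawn at 0.03. Bmp8a held 29.1 CPM in the MatC library with the lowest marker sum, whereas Bmp3 had 0 reads there.

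Bmp7, an osteogenic ligand also needed for kidney and eye development, was higher in Bone than in ImC. Its libraries held 31.2, 50.9 and 42.8 CPM in Bone, 27.1, 18.4 and 20.1 CPM in MatC and 11.9, 1.44 and 5.77 CPM in ImC. The 3 groups did not overlap, and ImC had the widest relative spread. The log2 fold change was 2.72 ± 0.61 (adjusted p = 0.00864) for Bone against ImC and 3.58 without ImC replicate 1. MatC was not called against ImC at 1.79 ± 0.59 (adjusted p = 0.0945), nor Bone against MatC at 0.93 ± 0.57 (adjusted p = 0.372), although DESeq2 and limma-voom called the first (adjusted p = 0.0273 and 0.0408).

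Bmp2, which induces bone and is needed for fracture repair in mice, had its highest single value in mature cartilage. Bone held 23.4, 39.0 and 39.4 CPM, MatC 47.9, 33.3 and 35.6 CPM and ImC 5.92, 21.8 and 3.99 CPM. Every Bone and MatC library lay above every ImC library, but Bone replicate 1 lay above ImC replicate 2 only by a narrow margin. Bone was called higher than ImC, with a log2 fold change of 1.67 ± 0.56 (adjusted p = 0.0445), but this call ended when ImC replicate 1 or 3, MatC replicate 1 or 2, or a single Bone library was left out (adjusted p at most 0.122), with only those groups (0.0678) and with library size only (0.133). Without ImC replicate 2 it was 2.78. MatC against ImC was not called at 1.87 ± 0.56 (adjusted p = 0.0709), and was called without ImC replicate 2 (2.98, adjusted p = 0.00783) and with limma-voom and DESeq2 (adjusted p = 0.0398 and 0.0105).

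Gdf10, also named Bmp3b as the closest relative of Bmp3, was lower in Bone, where Bmp3 was higher than in ImC. Both had reads in MatC, although Bmp3 had 0 in MatC replicate 3. Gdf10 stood at 1.03, 0.856 and 1.69 CPM in Bone, 35.6, 14.5 and 30.5 CPM in MatC and 88.8, 13.5 and 6.27 CPM in ImC. All Bone libraries lay below all cartilage libraries, while the cartilage groups overlapped and ImC replicate 1 stood far above its group. The log2 fold change was -4.90 ± 0.96 (adjusted p = 0.00511) for Bone against ImC and -2.998 without ImC replicate 1. For Bone against MatC it was -4.47 ± 0.94 (adjusted p = 0.0233), a call that ended without MatC replicate 3 or any 1 Bone library (adjusted p from 0.0612 to 0.124), with library size only (0.0969) and with limma-voom (0.0920). Between MatC and ImC the value was -0.43 ± 0.80 (adjusted p = 0.781), and 1.44 without ImC replicate 1.

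Gdf5, the joint-forming ligand mutated in brachypodism mice, was highest in immature cartilage. It stood at 1.08, 1.20 and 1.013 CPM in Bone, 0.682, 0.211 and 1.13 CPM in MatC and 6.83, 29.5 and 6.69 CPM in ImC. Every ImC library lay above every other library, and ImC replicate 2 held the most. The log2 fold change was -3.70 ± 0.73 (adjusted p = 0.00533) for Bone against ImC and -4.59 ± 0.81 (adjusted p = 0.0119) for MatC against ImC. Without ImC replicate 2 these were -2.61 and -3.47, and with only the cartilage groups in the fit MatC was not called (adjusted p = 0.0512). Summed over Prg4, Col3a1, Postn, Thbs4, Tnmd and Scx, markers of articular cartilage, tendon and perichondrium were also highest in replicate 2 within ImC. The sums were 361, 660 and 22.4 CPM in ImC replicates 1, 2 and 3, and Tnmd had 0 reads in ImC. In MatC, where Gdf5 was low, these markers summed to 374 to 1114 CPM. The part of such cells in the Gdf5 level was not tested.

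Bmp5, Bmp6 and Gdf6 were scarce and not called in any pairwise comparison. Bmp6, known from hypertrophic cartilage and from iron control in the liver, stood at 2.22, 2.74 and 2.93 CPM in Bone, 7.35, 1.41 and 4.81 CPM in MatC and 0.167, 1.49 and 0.997 CPM in ImC. Its log2 fold change was 1.53 ± 0.77 (adjusted p = 0.154) for Bone against ImC and 2.31 ± 0.79 (adjusted p = 0.105) for MatC against ImC, which DESeq2 called (adjusted p = 0.0239). Bmp5, the gene of the mouse short ear mutation, held 0.271, 0.685 and 0.901 CPM in Bone, 4.47, 2.19 and 1.13 CPM in MatC and 0.9999, 3.28 and 0 CPM in ImC. All MatC libraries lay above all Bone libraries for Bmp5, but the log2 fold change of -2.10 ± 1.17 for Bone against MatC was not called (adjusted p = 0.320). Gdf6, a relative of Gdf5 active in joints and skull sutures of the mouse, had 3, 0 and 2 reads in Bone, 39, 10 and 0 in MatC and 3, 1 and 0 in ImC. Most of its reads came from MatC replicate 1, and with no filter on low counts it was not called against Bone or ImC (adjusted p = 0.147 and 0.126).

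Set per kilobase of exon, the ligands made up different mixtures in the 3 tissues. The summed level of the 10 was 45.7 ± 1.3 CPM per kb in Bone, 37.8 ± 1.3 in MatC and 18.8 ± 10.1 in ImC (SD, n = 3). Bone and MatC libraries were alike within their group, and ImC replicate 3 stood lowest, at 7.29 CPM per kb. In Bone, Bmp4, Bmp7, Bmp8a and Bmp2 held 25.7% ± 8.0, 22.6% ± 4.8, 21.96% ± 2.3 and 20.8% ± 5.3 of the sum, which do not differ beyond their spread. In MatC, Bmp2 and Bmp8a led with 29.0% ± 5.4 and 27.3% ± 14.2, ahead of Bmp7 at 14.4% ± 2.9 and Gdf10 at 13.7% ± 5.7. The leading ligand was Bmp8a in MatC replicates 2 and 3, while in replicate 1 Bmp8a held 11.1%, behind Bmp2 at 34.9%, Gdf10 at 17.7% and Bmp7 at 17.5%. In ImC, Gdf5 and Gdf10 led with 35.1% ± 21.7 and 31.2% ± 30.3, and the leading ligand was Gdf10 in replicate 1 and Gdf5 in replicates 2 and 3. Lengths are those of the merged exons in GENCODE M21, and a bias of amplified RNA to the end of transcripts would affect levels per kilobase. These lengths include exonic bases shared with genes on the opposite strand, as in Gdf5 and Bmp5. Reads dropped there would lower the level per kilobase.

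**Figure D4:**
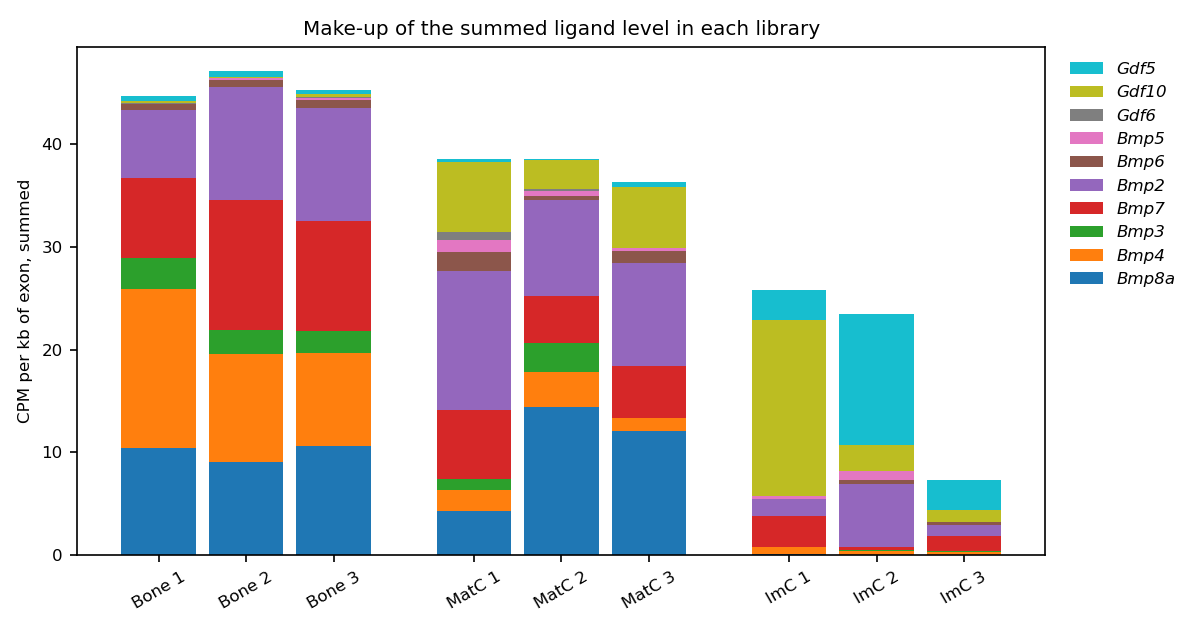
Summed level of the 10 ligands in CPM per kb of exon, stacked by gene, in each of the 9 libraries. Bone libraries reach 44.6 to 47.1 and are shared mainly by Bmp4, Bmp7, Bmp8a and Bmp2, while ImC libraries reach 7.29 to 25.8 and are led by Gdf10 or Gdf5.

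Promoter windows from RefSeq (GRCm38.p6), reaching 250 bases before to 50 after the annotated start, matched 5 of the 10 ligands. Those of Bmp8a and Bmp4, which were both higher in Bone and MatC than in ImC, and of Gdf10, which was lower in Bone, are shown. The RUNX core TGTGGT, the letters GGCGCC and the TATA box TATAAA were searched on both strands, and capitals mark a match. The windows are chr4:123343203-123343502 on the minus strand for Bmp8a, chr14:46390620-46390919 on the minus strand for Bmp4 and chr14:33923337-33923636 on the plus strand for Gdf10.

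Bmp8a promoter: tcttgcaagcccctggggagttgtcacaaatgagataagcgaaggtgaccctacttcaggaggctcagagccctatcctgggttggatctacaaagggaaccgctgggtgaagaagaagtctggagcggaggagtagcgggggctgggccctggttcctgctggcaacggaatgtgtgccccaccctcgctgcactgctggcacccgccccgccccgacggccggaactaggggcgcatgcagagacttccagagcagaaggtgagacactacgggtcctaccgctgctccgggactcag

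Bmp4 promoter: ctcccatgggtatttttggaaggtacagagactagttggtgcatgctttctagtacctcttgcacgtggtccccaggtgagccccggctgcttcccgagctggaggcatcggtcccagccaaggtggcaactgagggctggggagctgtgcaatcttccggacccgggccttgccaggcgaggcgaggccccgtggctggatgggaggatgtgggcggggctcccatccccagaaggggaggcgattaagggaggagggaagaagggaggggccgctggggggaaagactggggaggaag

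Gdf10 promoter: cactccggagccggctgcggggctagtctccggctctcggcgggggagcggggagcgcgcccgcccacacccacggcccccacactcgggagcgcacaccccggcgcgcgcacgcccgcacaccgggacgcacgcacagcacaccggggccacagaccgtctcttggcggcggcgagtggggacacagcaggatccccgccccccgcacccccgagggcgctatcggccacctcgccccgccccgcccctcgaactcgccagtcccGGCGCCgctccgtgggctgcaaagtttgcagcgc

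The 1 match among the 3 windows was GGCGCC in Gdf10, starting 16 bases after the annotated start. Of all 32851 windows in the table, 11.9% held GGCGCC, 16.8% the RUNX core and 13.6% the TATA box. The Gdf10 window was 77.3% G and C, that of Bmp4 64.0% and that of Bmp8a 62.0%, against a median of 52.7% over all windows.

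The other genes of the pathway were read from the same fit, and the count in each list stands beside the share of all genes called. That share was 14.3% higher and 16.8% lower in Bone against ImC, 1.36% and 4.69% in Bone against MatC, and 5.41% and 2.29% in MatC against ImC. Among 11 further ligands, Bmp8b and Gdf11 passed the filter on low counts. Bmp8b was higher in Bone than in ImC, at 1.82 ± 0.509 against 0.0403 ± 0.0365 CPM (SD, n = 3, adjusted p = 0.00613). With 84 and 2 reads pooled over libraries, the ratio was 40.5 (95% counting interval 10.9 to 340, which leaves out the spread between libraries). Gdf11, active in the patterning of the axial skeleton, stood at 29.5 ± 3.13 CPM in Bone, 21.2 ± 3.46 in MatC and 24.1 ± 16.8 in ImC and was called in no comparison. Of the convertases that cut ligand precursors, 2 of 4 were higher in Bone than in ImC, where 14.3% of all genes were. Pcsk6 held 307 ± 17.9 CPM in Bone and 18.6 ± 21.6 CPM in ImC (log2 fold change 4.04, adjusted p = 0.00494, and 5.62 without ImC replicate 2), and Pcsk5 was higher by 1.99 on the log2 scale (adjusted p = 0.0364). Leaving out ImC replicate 1 or 3, MatC replicate 2, or a single Bone library ended the Pcsk5 call (adjusted p at most 0.0920). No convertase was called in the other pairwise comparisons.

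Secreted and membrane antagonists were split. In Bone against ImC, 4 of 13 tested were higher and 3 lower, against 14.3% and 16.8% of all genes, with a median log2 fold change of -0.96. In MatC against ImC 3 were higher and 0 lower, against 5.41% and 2.29% of all genes, with a median of 1.32. No antagonist was called in Bone against MatC. Bambi, a decoy receptor, held 76.5 ± 22.3 CPM in Bone, 41.3 ± 19.1 in MatC and 8.35 ± 4.74 in ImC, with log2 fold changes of 3.20 (adjusted p = 0.00294) for Bone and 2.32 (adjusted p = 0.0310) for MatC against ImC. Sost, the osteocyte product sclerostin, had 287 reads in Bone, 124 in MatC and 1 in ImC. With reads pooled over libraries, its Bone level was 277-fold that of ImC (95% counting interval 49.3 to 10966). That interval leaves out the spread between libraries. The log2 fold change of Sost from the fit was 7.49 for Bone against ImC (adjusted p = 0.0111). Nbl1 was higher in Bone and in MatC than in ImC (adjusted p = 0.0124 and 0.0484). Without any 1 of the Bone libraries none of the 3 was called in MatC against ImC, and without MatC replicate 2, Bambi, Nbl1 and Sost had adjusted p = 0.0844, 0.143 and 0.212. Without ImC replicate 2 and 3 in turn, the log2 fold change of Sost in Bone was 6.88 and 9.28, against 7.49 with all libraries. Noggin (Nog), Fstl1 and Bmper were lower in Bone than in ImC (adjusted p = 0.0456, 0.0496 and 0.0204), and each was not called without ImC replicate 1 or any 1 of the Bone libraries. Nog was -2.20 on the log2 scale and -1.40 without ImC replicate 2, and Bmper was -1.99 and -1.21 without ImC replicate 1.

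Of 9 receptors and co-receptors, 1 was higher and 3 were lower in Bone than in ImC, with a median log2 fold change of -0.33. That count of 4 is near the 31.1% of all genes called in this comparison. In MatC against ImC 0 were higher and 1 was lower, and Bone against MatC gave no call. Bmpr1b, the type I receptor that binds Gdf5, held 1.03 ± 0.487 CPM in Bone, 6.16 ± 7.73 in MatC and 19.4 ± 6.25 in ImC, with a log2 fold change of -4.22 for Bone against ImC (adjusted p = 0.00630). The co-receptor Rgma held 0.544 ± 0.285 CPM in Bone, 1.87 ± 0.665 in MatC and 13.6 ± 2.44 in ImC, and was lower in Bone (-4.64, adjusted p = 0.000541) and in MatC (-2.81, adjusted p = 0.0136) than in ImC, the MatC call ending with library size only (adjusted p = 0.0533). Acvr2b was lower in Bone than in ImC (-1.91, adjusted p = 0.0315) and Acvrl1 higher (1.81, adjusted p = 0.0181). Acvr2b was not called without ImC replicate 3 or any 1 Bone library, and Acvrl1 was not called without ImC replicate 1 or Bone replicate 2 or 3. The receptors Bmpr1a and Bmpr2 were called in no comparison.

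Of 6 Smads, 3 were higher in Bone than in ImC, against 14.3% of all genes, namely the signal carriers Smad1 (1.90, adjusted p = 0.00102) and Smad9 (2.19, adjusted p = 0.00570) and the inhibitor Smad6 (2.90, adjusted p = 0.00453). Smad6 was also higher in Bone than in MatC (2.73, adjusted p = 0.01996), at 46.5 ± 0.883 against 6.77 ± 6.14 CPM. That call ended without any 1 of the Bone libraries, and the value was 3.80 without MatC replicate 2. Smad1 was called higher in MatC than in ImC (1.44, adjusted p = 0.0131), but not with library size only (adjusted p = 0.356) or only those groups in the fit (adjusted p = 0.0679). Of 10 response genes, 6 were higher in Bone than in ImC and 1 was lower, against 14.3% and 16.8% of all genes, with a median of 3.50. In MatC against ImC 3 were higher and 0 lower, against 5.41% and 2.29% of all genes. In Bone against MatC 2 were higher and 1 lower, against 1.36% and 4.69%. Dlx3, a homeobox factor of bone, held 126 ± 6.55 CPM in Bone, 26.8 ± 17.5 in MatC and 0.222 ± 0.210 in ImC (adjusted p = 9.65e-05 for Bone and 0.00159 for MatC against ImC). Dlx3 was also higher in Bone than in MatC (2.22, adjusted p = 0.0382). That call ended without MatC replicate 1 or 3 or any 1 Bone library, and with library size only. The homeobox gene Msx1 held 77.3 ± 12.0 CPM in Bone, 2.62 ± 1.10 in MatC and 2.59 ± 2.32 in ImC (adjusted p = 0.000808 for Bone against ImC and 0.00290 for Bone against MatC), and its log2 fold change for Bone against ImC was 4.91, or 5.96 without ImC replicate 3. Hey1 was higher in Bone and MatC than in ImC (adjusted p = 0.00139 and 0.0208), at log2 fold changes of 8.96 and 6.00. The MatC value was not called when ImC replicate 1 or 2 or MatC replicate 2 was left out, with limma-voom (adjusted p = 0.0974) or with library size only (adjusted p = 0.0569). It was 4.92 without MatC replicate 2 and 7.85 without ImC replicate 3, where the Bone value was 10.79. Dlx5 was higher in Bone and MatC than in ImC (adjusted p = 0.00424 and 0.0278), at log2 fold changes of 5.00 and 4.04. Without ImC replicate 1 these were 7.45 and 6.43. The MatC call of Dlx5 ended in 8 alternatives, among them any 1 left-out Bone library. Id4 was lower in Bone, at 1.77 ± 0.907 CPM against 73.4 ± 55.3 CPM in ImC (adjusted p = 0.00197). Its log2 fold change was -5.35, or -4.58 without ImC replicate 2. Id4 was also lower in Bone than in MatC (-3.15, adjusted p = 0.0436). That call ended in 8 alternatives, among them any 1 left-out Bone library. Id3 was higher in Bone than in ImC (2.20, adjusted p = 0.00672), a call that held in every alternative. Id1 and Id2 were called in no comparison.

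**Figure D5:**
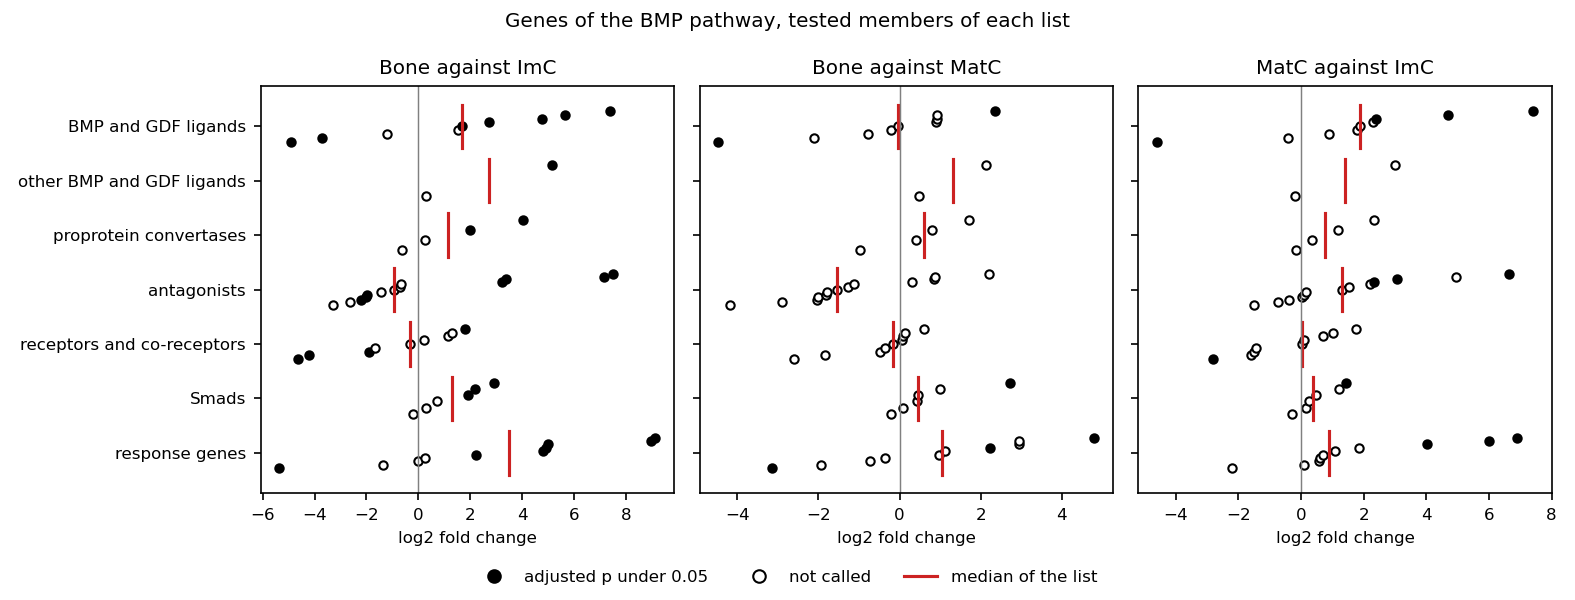
Log2 fold changes of every tested gene in 7 lists of the BMP pathway for each comparison; filled points have an adjusted p under 0.05 and red bars mark the median of a list. In Bone against ImC the median was 3.50 for response genes and -0.96 for antagonists.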

How the data were processed

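RNA sequencing libraries of bone, mature cartilage and immature cartilage were compared, with 3 per tissue and groups and replicate numbers taken from the library titles. The deposited counts are whole reads per gene symbol. Per the submitters' processing notes, Trimmomatic 0.30, TopHat2, Bowtie2, HTSeq and edgeR were used with mm10; their roles and settings are not given in the sources used here. A further deposited table gives a score, normalized and rounded by the authors, for 13302 genes. It served only to recover 1 scaling factor per library, from genes over 2000 raw reads.

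Low genes were removed with filterByExpr (minimum count 10), leaving 14257 genes and at least 99.8% of each library. The quasi-likelihood test of edgeR 4.0.16 (R 4.3.3) was run on 1 fit of all 9 libraries with trimmed mean of M values (TMM) factors. Log2 fold changes carry an SE, taken as their size divided by the root of the F statistic. Levels are CPM with TMM factors. The procedure was tested on simulated data, where it missed most of the smaller changes, so a gene not called may still differ. The ligands, gene lists and motifs were chosen with earlier results of these data known. Named pathway genes are up to 4 called per list and comparison with the smallest p. Genes named outside that rule, such as Nog, Fstl1, Bmper, Id3 and those not called, were added after their values were seen. Alternatives used DESeq2 1.42.0, limma 3.58.1, other scalings and filters, and left-out libraries. Whether replicates are separate animals is not in the labels. The p-values then reflect only how these libraries vary, which may be technical. Replicates of a tissue differed by more than sampling noise in every pair. 1 antagonist counted in its list is not reported here by name.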

Additional observations from a re-analysis of the deposited data

How the results depend on the processing

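Of 36 log2 fold changes (9 ligands, 4 comparisons including MatC against the midpoint of Bone and ImC), Bmp8a, Bmp4, Bmp3, Bmp7, Gdf10 and Gdf5 kept their Bone against ImC calls in all 19 alternatives, and Bmp8a its MatC against ImC call. With library size only, all-gene calls were 2073 for Bone against ImC, 297 for Bone against MatC, 358 for MatC against ImC and 75 against the midpoint (main 4432, 863, 1099 and 436), ligand calls were 1 for Bone against MatC and 2 for MatC against ImC (main 2 and 4), and the median of all genes moved by 0.48, 1.013 and -0.53 on the log2 scale. The share of higher calls became 59.0%, 40.1% and 53.4% in these comparisons, against 46.0%, 22.5% and 70.2%. Its reversed values, none called, were 0.70 for Bmp2, 0.000207 for Bmp6 and 1.29 for Bmp8a in Bone against MatC, and -0.75 for Bmp4 and -0.20 for Bmp7 against the midpoint. DESeq2's test called 1964 genes for Bone against MatC, 2229 for MatC against ImC and 963 against the midpoint, with 7 ligands for MatC against ImC and 2 against the midpoint. With no filter 1504, 1690 and 1012 genes were called, with 3 ligands against the midpoint; Bmp8a in Bone against MatC was 0.0616 and Bmp4 against the midpoint -0.0079. With the authors' factors these were 0.0616 and -0.0077. With limma-voom, 1 ligand was called in Bone against MatC, where 40.0% of all-gene calls were higher, and Bmp5 was 0.0761 in Bone against ImC, Bmp8a 0.21 in Bone against MatC and Gdf10 0.35 in MatC against ImC. With only the groups compared, 205 genes and 1 ligand were called for MatC against ImC. The cause of these shifts was not tested.

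Deviations of same-numbered libraries correlated at -0.13 to 0.24 across genes, and those of differently numbered libraries at -0.40 to 0.36. With 3 libraries per tissue, these values cannot settle whether the replicate numbers pair the libraries. With the number as a replicate block, Bmp3 was not called in MatC against ImC (adjusted p = 0.107), nor were Bambi, Nbl1 and Sost there or Nog and Fstl1 in Bone against ImC, and 725 genes were called for MatC against ImC, with values of 0.0284 for Bmp8a (Bone against MatC), 0.0187 for Gdf10 (MatC against ImC) and -0.0142 for Bmp4 (midpoint). Leaving out 1 library at a time gave 2343 to 5408 calls for Bone against ImC, 167 to 1702 for Bone against MatC, 355 to 1240 for MatC against ImC and 129 to 707 against the midpoint, and 0 to 2, 2 to 4 and 1 to 2 ligand calls in the last 3. Values that turned sign ran from -0.31 to 0.0176 (Bmp2) and -0.39 to 0.32 (Bmp8a) in Bone against MatC, -1.79 to 0.33 (Bmp5) in Bone against ImC, -0.93 to 1.44 (Gdf10) in MatC against ImC and -0.40 to 0.28 (Bmp4) against the midpoint. Bmp5, Bmp6 and Gdf6 had few reads and also varied between MatC libraries. Which of these limits their tests was not tested.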

Other observations

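For each called ligand, the genes whose log2 CPM followed it most closely over the 9 libraries were sought among 8692 genes with a mean of at least 10 CPM in a tissue. These libraries fall into 3 groups that share their tissue, so the correlations largely restate the group levels and are given as a description. Bmp8a was followed most closely by Slc13a5, a citrate transporter, which averaged 448 CPM in Bone, 366 CPM in MatC and 1.14 CPM in ImC (Pearson r = 0.994), and by Rhbdl2 (0.989). Bmp7 was followed by Pde8a (0.991) and by Runx2, a master regulator of osteoblasts (0.972). Bmp3 was followed by Gucy1a3 and by the procollagen protease Adamts2 (0.995 and 0.982), Bmp4 by Eef2k and Rasa3 (0.991 and 0.990), and Bmp2 by Postn and Ogt (0.976 and 0.970). For the ligands lower in Bone, Gdf10 was followed by Bcl2 and Pak3 (0.963 and 0.959), and Gdf5 by Ninj1 and the glypican Gpc6 (0.970 and 0.949).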
